A study of Mus musculus with 9 samples.

Results

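The genes described here are 3 transcriptional activators of the circadian clock, Arntl, Clock and Npas2, and 3 nuclear receptors of its second loop, Nr1d1, Nr1d2 and Rora. They are 6 of the 19505 genes with a symbol on the array and were taken by name from the platform's annotation. Where a gene had several probe sets the one with the highest mean over the 9 arrays was read, which concerned Rora alone, with 3 probe sets. RNA of whole tibialis anterior, a muscle at the front of the shin, was hybridised to Clariom S mouse arrays of Affymetrix. The mice were aged 2 months and of strain C57/BL6, with 3 arrays a genotype. The genotypes were MCU knockout (MCU-/-/MCUb+/+), MCUb knockout (MCU+/+/MCUb-/-) and control (MCU+/+/MCUb+/+). MCU forms the pore of the mitochondrial calcium uniporter and MCUb is a paralogue in the same complex. The labels do not say in which cells the genes were deleted, at what time of day muscles were taken, which sex the mice had, or whether each sample was a different animal. The p-values therefore measure the spread between samples, which can be technical.

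The activators pair as BMAL1 (the product of Arntl) with CLOCK or with NPAS2 and bind E-boxes, which switches on the Per and Cry repressors as well as Nr1d1 and Nr1d2. REV-ERB alpha and REV-ERB beta, encoded by Nr1d1 and Nr1d2, are haem-binding repressors that occupy ROR response elements (ROREs), where ROR alpha, encoded by Rora, activates. Arntl, Clock and Npas2 are among the genes with such elements, so the receptors feed back on the activators. Transcripts of this network rise and fall over the day in many tissues, skeletal muscle included, and in muscle REV-ERB alpha is known for its part in oxidative metabolism and autophagy.

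Values are log2 values of a probe set on an array, and a log2 change is the difference between 2 group means. Levels of different probe sets are not comparable with one another. A probe set counted as above background when it exceeded the 95th percentile of the 23 background sets of that array, between 5.87 and 5.92. By this limit 5 of the 6 genes were above background on every array, and Npas2 on none. A change is called where limma gave an adjusted p under 0.05 over all 22206 probe sets. The genes were grouped by function but proposed with earlier results of these data known, so the p-values describe these arrays and are no independent support.

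Nr1d1 carried the one called change: it was lower in the MCUb knockout than in control, by a factor of 4.06. Its level was also below control on all 3 MCU knockout arrays, without passing the test, and below that on all 3 MCUb knockout arrays. Arntl and Clock were lower than control on every MCUb knockout array, by values that did not pass and with an interval that included 0 for Clock. Npas2 was dim. Nr1d2 and the probe set read for Rora had changes with intervals that included 0. Another Rora probe set was at 0.53 in the MCUb knockout, with an interval from 0.02 to 1.05, and did not pass. Both comparisons with control share the same 3 control arrays.

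Calls among the 6 genes were counted beside the share of all probe sets that met the same condition. By adjusted p, 1 of the 6 was called between MCUb knockout and control (0.0225% of all probe sets), 0 between MCU knockout and control (0.14%) and 0 between the knockouts (0.158%). At an unadjusted p under 0.05, limma put 3 genes lower and 0 higher in the MCUb knockout than in control (4.21% and 3.9% of all probe sets). For MCU knockout against control it put 1 lower and 0 higher (5.35% and 4.76%), and for MCU knockout against MCUb knockout 0 lower and 3 higher (3.02% and 2.68%). Groups did not overlap for 4 genes lower and 0 higher in the MCUb knockout than in control (7.02% and 5.73%). They did not overlap for 2 lower and 0 higher in the MCU knockout than in control (7.33% and 6.08%), and for 0 lower and 2 higher in the MCU knockout than in the MCUb knockout (6.19% and 6.59%). Npas2, above background on no array, is among the genes lower in the MCUb knockout than in control by both counts, unadjusted p and lack of overlap. Without control replicate 3 the counts of genes lower at that p were 2 for MCUb knockout against control and 0 for MCU knockout against control. The median log2 change of the 6 genes was -0.27 for MCU knockout against control, -0.47 for MCUb knockout against control and 0.36 between the knockouts, beside -0.02, -0.03 and 0.01 over all probe sets.

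**Figure D1:**
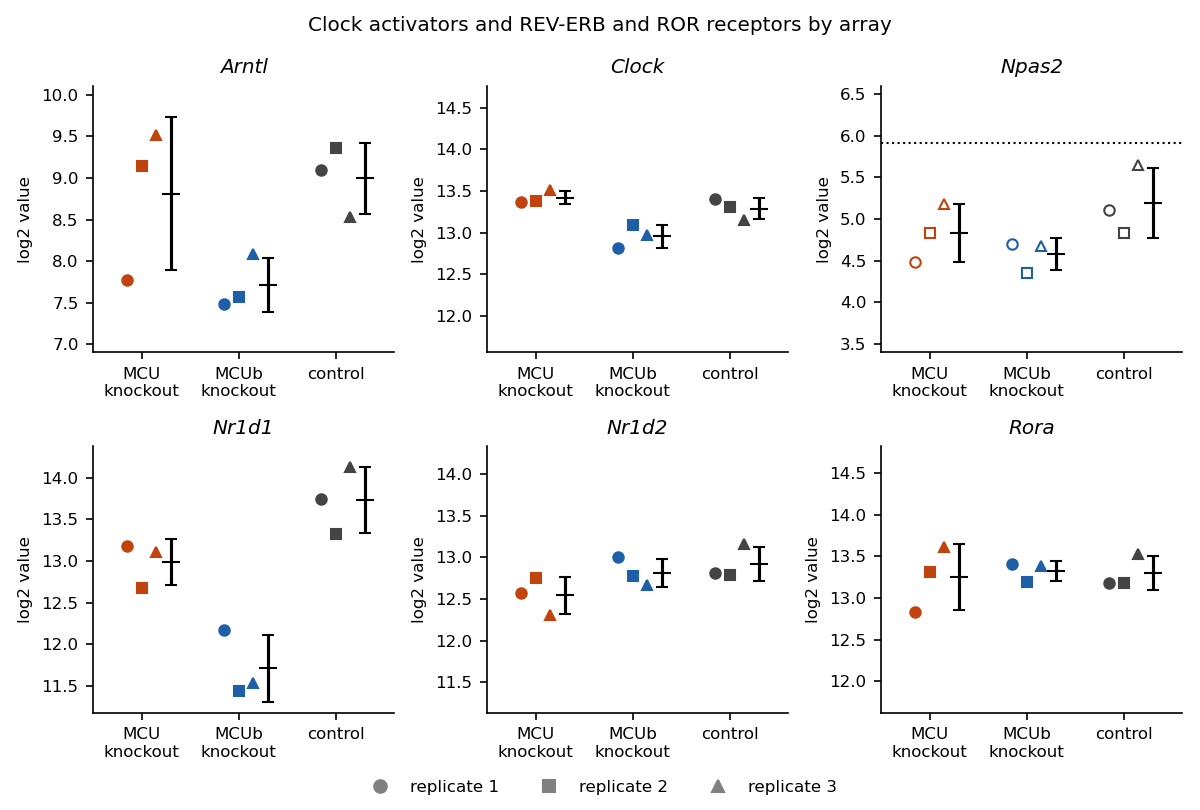
Log2 value of each gene (vertical axis, 1 panel a gene, all panels spanning the same number of log2 units) by genotype, 1 point per array with the shape giving the replicate number, and the mean with its SD beside the points. Open points mark a group below the background limit, drawn as a dotted line for Npas2. For Nr1d1 the 3 genotypes do not overlap, with MCUb knockout lowest between 11.43 and 12.17.

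Mcu itself had log2 values of 6.80, 6.98 and 7.06 in the MCU knockout, of 10.71, 11.06 and 10.81 in the MCUb knockout and of 10.38, 10.96 and 10.46 in control. The transcript of Mcub was not analysed here, which leaves that label unchecked. Skeletal muscle markers (Ckm, Acta1, Mylpf, Tnnt3, Myh4 and Pvalb) were above background on every array. Control replicate 3 stood apart, with a mean correlation of 0.978 with the other arrays against 0.985 to 0.988 for the rest. Uty and Kdm5d, which are Y-linked, averaged 7.80 on replicate 1 of the MCUb knockout and 7.56 and 7.24 on replicates 2 and 3 of the MCU knockout, against 3.01 to 3.89 on the other 6 arrays. Both genes were above background on 0 control, 2 MCU knockout and 1 MCUb knockout arrays, so the Y-linked level is not balanced over the genotypes. Mean levels of fibroblast, endothelial, macrophage, adipocyte and Schwann cell markers overlapped between the groups in all 3 comparisons, and 3 of the 5 adipocyte markers were above background on no array. Single markers, picked after their values were seen, differed more. Fabp4, the only gene of the adipocyte list above background on every array, had 16.83, 17.02 and 16.73 in the MCUb knockout, against 17.29, 17.30 and 17.34 in control (change -0.45, adjusted p = 0.565). It was below control without overlap in the MCU knockout too (change -0.21, adjusted p = 0.703). The endothelial receptor gene Kdr was at -1.09 in the MCUb knockout with groups that overlapped (adjusted p = 0.555). Of the 5 endothelial markers 4 were lower there and 1, Pecam1, was higher at 0.26. In the MCU knockout the macrophage marker Mrc1 was at -1.25 without overlap (adjusted p = 0.496), while 3 of the 4 measured macrophage markers were higher. The fibroblast marker Col3a1 was at 1.13 there with overlap (adjusted p = 0.506), and 3 of the 4 measured fibroblast markers were higher and 1 lower. Their part in the results was not tested. In whole muscle, fewer cells of a type and less RNA per cell cannot be told apart.

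Arntl, whose product BMAL1 is the common partner of the other activators, had log2 values of 7.49, 7.57 and 8.09 on the MCUb knockout arrays, against 9.09, 9.36 and 8.53 on the control arrays. Every MCUb knockout array lay below every control array. The mean was 7.72 ± 0.32 in the MCUb knockout and 9.0 ± 0.43 in control (SD, n = 3 each), a log2 change of -1.28 with a 95% interval from -2.16 to -0.40 (SE 0.40), and it did not pass (limma adjusted p = 0.534). It stayed between -1.51 and -1.10 under the 17 other settings tried.

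Arntl was uneven in the MCU knockout, with 7.77 on replicate 1 against 9.15 and 9.52 on replicates 2 and 3. Replicate 1 lay among the MCUb knockout values, replicate 2 among the controls and replicate 3 above them. Replicate 1 is also the MCU knockout array with a low Y-linked level (3.58), and with that level as a covariate the change against control was -0.49 (adjusted p = 0.831) and the difference between the knockouts 0.94 (adjusted p = 0.916). The mean of 8.81 ± 0.92 gave a change of -0.18 against control (interval -1.06 to 0.70, adjusted p = 0.901), and became 0.34 when MCU knockout replicate 1 was left out and 0.0032 when control replicate 2 was. Between the knockouts the difference was 1.10 (SE 0.40, adjusted p = 0.721), and 1.62 without that array.

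A window around an annotated start of Arntl is shown because this gene is a known target of both receptor families. Capitals mark letters matching a searched form of the ROR response element. Windows of 300 bases, 250 before to 50 after a start, came from RefSeq (GRCm38.p6), and all 6 genes had at least 1. The first one below lies on the plus strand at chr7:113207261-113207560.
Arntl: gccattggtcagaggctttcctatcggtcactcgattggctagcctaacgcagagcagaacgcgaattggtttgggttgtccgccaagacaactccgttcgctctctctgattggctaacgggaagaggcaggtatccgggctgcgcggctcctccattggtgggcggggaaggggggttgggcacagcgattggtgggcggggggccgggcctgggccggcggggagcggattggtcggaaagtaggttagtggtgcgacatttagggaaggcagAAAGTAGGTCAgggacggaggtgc
The capitals match TAGGTCA with an A 3 bases ahead of its first T and any base at the other places, a form of 11 bases beginning at position 27 after the start that contains the core AGGTCA. On either strand the longer form occurs in 0.697% of all 32851 windows and the core in 16.3%. A window at another Arntl start, beginning 46 bases earlier, ends before the marked stretch and held none of the letters searched. These were the forms above, the same form with TGGGTCA in place of TAGGTCA (0.91% of windows), the E-box CACGTG (7.15%) with its variant CACGTT (4.68%), and the D-box TTANGTAA (2.32%). Other spellings of the element were not searched, among them aaagtaggtta, which stands in lower case in both Arntl windows. A match describes letters and is not evidence of binding.

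Clock, the histone acetyltransferase that partners BMAL1, varied little within groups, with SDs of 0.08 in the MCU knockout, 0.14 in the MCUb knockout and 0.13 in control. It had 12.81, 13.09 and 12.97 in the MCUb knockout, against 13.40, 13.31 and 13.15 in control. All MCUb knockout values lay under all control values, by 0.06 at the nearest. The change was -0.33 (interval -0.70 to 0.04, SE 0.17, adjusted p = 0.629). On the MCU knockout arrays Clock stood at 13.37, 13.38 and 13.51, overlapping with control (change 0.13, interval -0.24 to 0.51, adjusted p = 0.812). MCU knockout therefore lay above MCUb knockout on every array, by a mean of 0.46 (interval 0.09 to 0.83, adjusted p = 0.721).

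Npas2, the CLOCK paralogue, had log2 values of 4.48, 4.84 and 5.18 in the MCU knockout, 4.70, 4.35 and 4.68 in the MCUb knockout and 5.10, 4.83 and 5.64 in control. None of these 9 values was above background, so no fold is given. The fitted differences of -0.36, -0.62 and 0.25 for MCU knockout against control, MCUb knockout against control and between the knockouts did not pass (adjusted p of 0.651, 0.577 and 1.0).

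Nr1d1 encodes REV-ERB alpha and is itself switched on by BMAL1 with CLOCK. It had 12.17, 11.43 and 11.53 on the MCUb knockout arrays, 13.18, 12.68 and 13.11 on the MCU knockout arrays and 13.75, 13.33 and 14.13 on the control arrays. The 3 genotypes did not overlap, with MCUb knockout lowest and control highest. That order without overlap was found in 26 of the 22206 probe sets (0.117%). It was the order of Nr1d1 itself, and no other order was counted, so the share is a description and no support. Nr1d1 was at 11.71 ± 0.40 in the MCUb knockout and 13.73 ± 0.40 in control, a log2 change of -2.02 with an interval from -2.61 to -1.44 (SE 0.27, adjusted p = 0.0462), the fifth smallest p of the comparison. A two-sided exact permutation test of these values gave 0.1, and no split of 3 against 3 can give less.

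The size of the Nr1d1 change in the MCUb knockout moved little, between -2.25 and -1.83 under the 17 other settings, but the call was narrow. It held in 7 of them and was lost in 10, with adjusted p from 0.00857 to 0.349. Leaving out control replicate 1 gave 0.201, control replicate 3 gave 0.115, and MCUb knockout replicates 1, 2 and 3 gave 0.0597, 0.298 and 0.349. Without MCU knockout replicates 1, 2 and 3, which enter only the shared estimate of spread, it was 0.0887, 0.0726 and 0.104. The Y-linked level as a covariate gave a change of -2.11 (adjusted p = 0.0587), and MCUb knockout replicate 1, with the high Y-linked level, had the highest Nr1d1 value of its group. The part of that level in the Nr1d1 values of a group was not tested otherwise.

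In the MCU knockout Nr1d1 averaged 12.99 ± 0.27, a change of -0.75 against control with an interval from -1.33 to -0.16 (SE 0.27, adjusted p = 0.408). The knockouts differed by 1.28, from 0.69 to 1.86, with MCU knockout higher (SE 0.27, adjusted p = 0.166). Neither difference passed.

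Nr1d1 and the thyroid hormone receptor gene Thra overlap in the annotation, Nr1d1 lying at chr11:98767932-98775377 and sharing its last 1075 bases with the end of Thra on the other strand (GRCm38.p6). Thra, named after its values were seen, had 9.66, 9.41 and 9.28 in the MCUb knockout, against 9.07, 8.81 and 9.11 in control. It was thus higher on every MCUb knockout array, opposite to Nr1d1, by 0.46 (SE 0.18, adjusted p = 0.566). In the MCU knockout it stood at 8.86 ± 0.10 (change -0.13, adjusted p = 0.829). Whether the probes of either gene lie in the shared stretch was not tested.

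Nr1d2 encodes REV-ERB beta, which shares targets with REV-ERB alpha. On the MCUb knockout arrays it had 13.00, 12.77 and 12.67, against 12.81, 12.79 and 13.16 on the control arrays. The groups overlapped, and the change was -0.11 with an interval from -0.54 to 0.32 (SE 0.20, adjusted p = 0.902). The MCU knockout arrays had 12.57, 12.75 and 12.31, each below every control array. That change was -0.38 (interval -0.81 to 0.05, adjusted p = 0.549), and the knockouts differed by -0.27 (interval -0.70 to 0.16, adjusted p = 1.0). In the MCUb knockout the interval of Nr1d1 lay below that of Nr1d2 without overlap, a description of the pair and not a test of it.

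The windows at the annotated starts of the receptor pair are set side by side because the genes had such different values in the MCUb knockout. Both lie on the minus strand, Nr1d1 at chr11:98775328-98775627 and Nr1d2 at chr14:18239057-18239356, and capitals mark matches to the letters listed for Arntl.
Nr1d1: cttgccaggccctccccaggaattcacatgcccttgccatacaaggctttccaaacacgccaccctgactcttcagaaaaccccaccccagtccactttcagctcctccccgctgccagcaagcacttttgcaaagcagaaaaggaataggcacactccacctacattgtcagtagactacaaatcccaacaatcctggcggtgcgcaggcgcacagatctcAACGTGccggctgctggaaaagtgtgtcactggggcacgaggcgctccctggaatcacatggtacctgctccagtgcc
Nr1d2: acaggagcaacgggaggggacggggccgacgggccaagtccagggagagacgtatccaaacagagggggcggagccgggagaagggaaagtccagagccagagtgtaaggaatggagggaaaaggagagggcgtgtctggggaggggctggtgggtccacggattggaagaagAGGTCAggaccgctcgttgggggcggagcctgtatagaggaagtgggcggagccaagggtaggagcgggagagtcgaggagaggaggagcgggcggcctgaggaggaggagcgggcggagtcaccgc
In Nr1d1 the capitals are the E-box variant CACGTT read on the opposite strand, at position -28 from the start. In Nr1d2 they are the core AGGTCA at position -77, without the bases before it that would make either longer form. Clock had the core on the opposite strand at position -119 of 1 of its 3 windows, and the windows of Npas2 and Rora held no match to these letters.

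**Figure D2:**
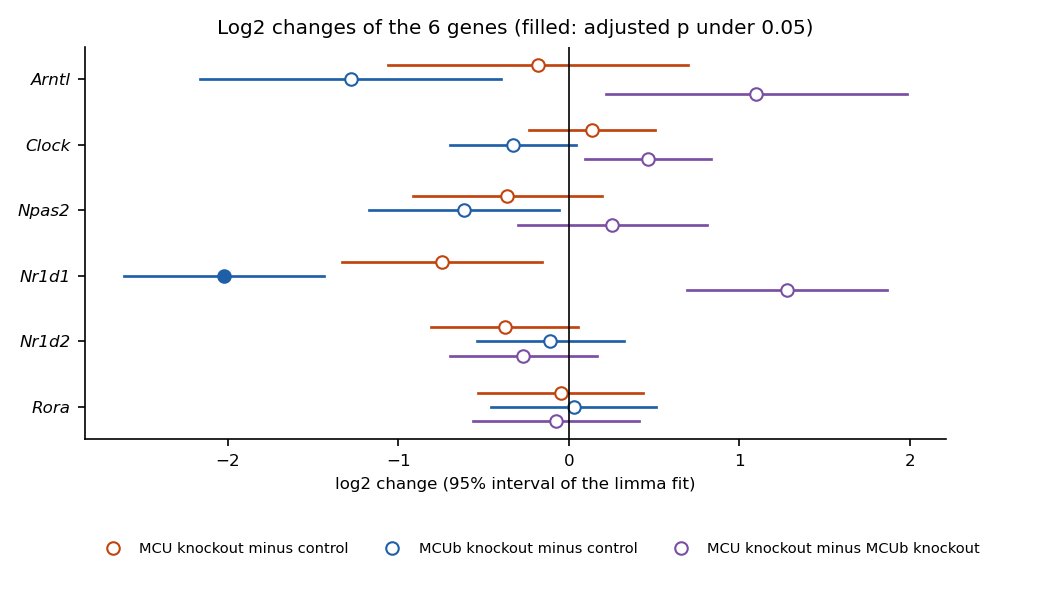
Log2 change of each gene (horizontal axis) with its 95% interval from the limma fit, for MCU knockout minus control, MCUb knockout minus control and MCU knockout minus MCUb knockout. Filled points have an adjusted p under 0.05, which holds for Nr1d1 in the MCUb knockout at -2.02 and for no other point.

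Rora encodes ROR alpha, the activator at the elements that REV-ERB represses. The probe set read for it, TSUnmapped00000043.mm.2, had 12.83, 13.31 and 13.61 in the MCU knockout, 13.41, 13.19 and 13.39 in the MCUb knockout and 13.18, 13.19 and 13.53 in control. All 3 groups overlapped. Changes were -0.05 for MCU knockout against control (interval -0.53 to 0.44, adjusted p = 0.960), 0.03 for MCUb knockout against control (interval -0.46 to 0.51, adjusted p = 0.983) and -0.08 between the knockouts (adjusted p = 1.0). The sign of each turned under at least 1 other setting.

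Its other probe sets gave different values. TC0900000892.mm.2 had 12.81, 12.11 and 12.52 in the MCUb knockout, against 11.68, 12.22 and 11.95 in control, overlapping by 1 array of each group (change 0.53, interval 0.02 to 1.05, adjusted p = 0.605). TSUnmapped00000044.mm.2 had 7.01, 7.25 and 6.64 in the MCUb knockout, against 7.40, 6.73 and 5.96 in control (change 0.27, adjusted p = 0.850). For MCU knockout against control these probe sets gave 0.14 and -0.25, neither past the test. Which Rora transcripts each measures is not settled by the files used here.

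**Figure D3:**
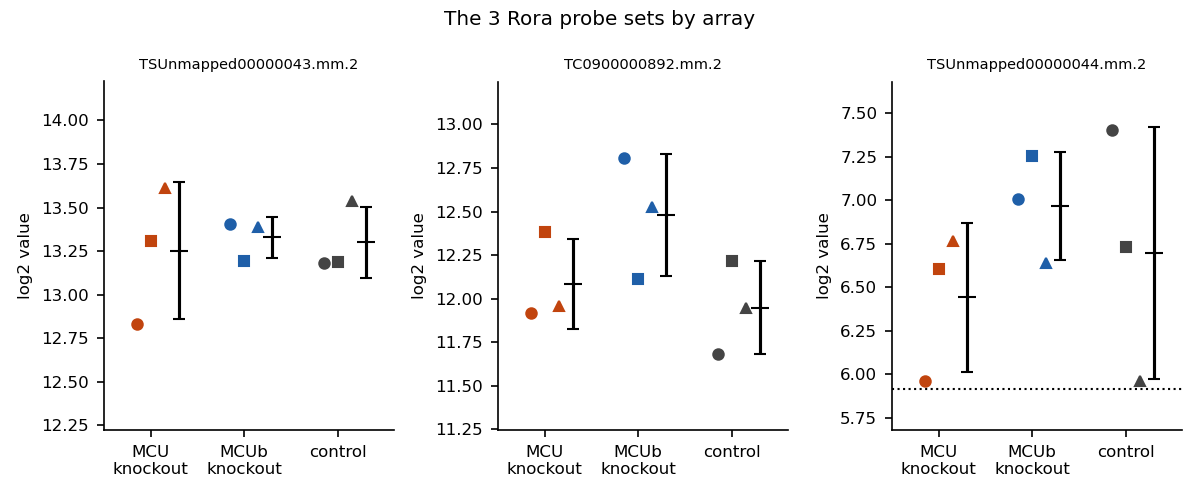
Log2 values (vertical axes, the same span in each panel) of the 3 probe sets annotated to Rora by genotype, 1 point per array, with the mean and SD beside them and the background limit as a dotted line on the right. The left probe set, with the highest mean, is level across genotypes, and the middle one has a MCUb knockout mean of 12.48 beside 11.95 in control.

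Relatives of these genes were dim. Arntl2, which encodes a BMAL1 paralogue, exceeded background on 2 MCU knockout arrays, on 0 MCUb knockout arrays and on 0 control arrays. Its values were 5.50, 6.28 and 5.95 in the MCU knockout, against 4.87, 5.43 and 5.59 in control (change 0.61, SE 0.25, adjusted p = 0.455). In the MCUb knockout it had 5.57, 5.36 and 5.36 (change 0.13, adjusted p = 0.904). Rorb was above background on no array.

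Of the 10 pairs among the 5 genes above background, those of Nr1d1 with Arntl and with Clock correlated with opposite signs over all 9 arrays and within genotypes. Arntl and Nr1d1 correlated at 0.57 over the 9 log2 values and at -0.51 once each value was taken as a deviation from its genotype mean. Clock and Nr1d1 gave 0.58 and -0.60. Arntl and Clock kept their sign at 0.75 and 0.47, as did Clock and Nr1d2 at -0.57 and -0.80. In each genotype the array with the highest Nr1d1 had the lowest Arntl and Clock of its group. This was replicate 1 in the MCU knockout, with Nr1d1 at 13.18, Arntl at 7.77 and Clock at 13.37, the last close to the next array at 13.38. In the MCUb knockout it was replicate 1, with 12.17, 7.49 and 12.81 for the same genes, and in control replicate 3, with 14.13, 8.53 and 13.15. These values are descriptions over 9 arrays that share genotypes, and control replicate 3 is the array that stood apart.

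**Figure D4:**
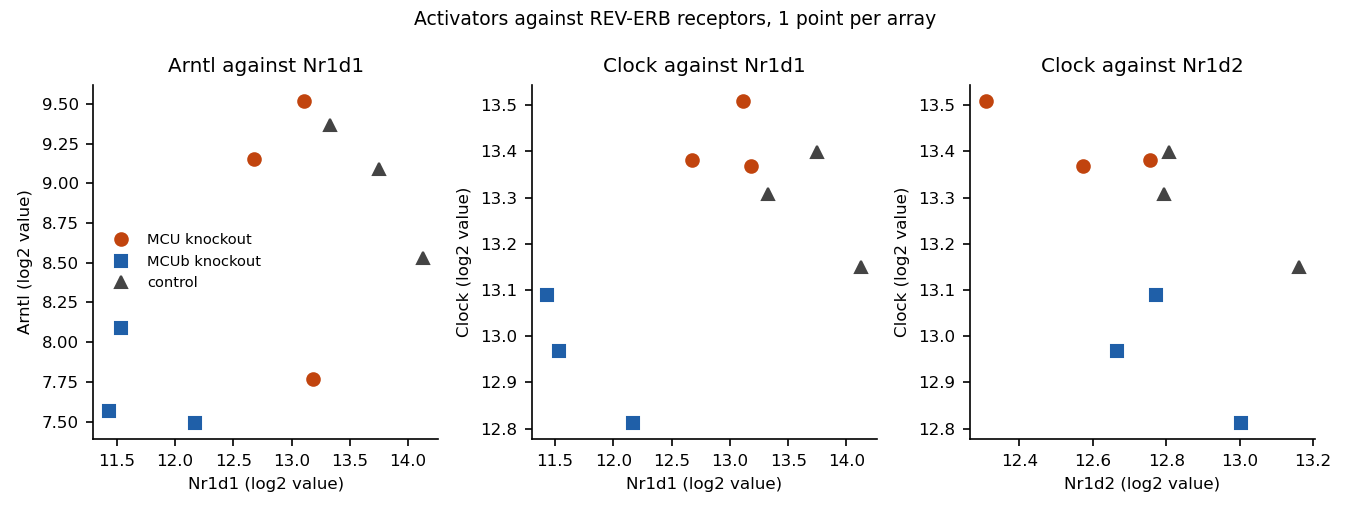
Log2 values of an activator (vertical axes) against those of a REV-ERB receptor (horizontal axes), 1 point per array, for MCU knockout, MCUb knockout and control. MCUb knockout arrays sit at the low end of both axes for Arntl and Nr1d1, while within each genotype the array highest in Nr1d1 is the lowest in Arntl.

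Repressors that the activators switch on mostly lay on the other side of control from Nr1d1 in the MCUb knockout. Of the 8 measured repressor genes 7 were above control there and 1 below, with a median log2 change of 0.65, and 0 were called in limma (4 higher and 0 lower at an unadjusted p under 0.05, where 3.9% and 4.21% of all probe sets were). Ciart, a repressor of BMAL1 with CLOCK, had 8.29, 8.25 and 8.71 in the MCUb knockout, against 7.30, 6.87 and 7.42 in control. It was higher on every MCUb knockout array by a mean of 1.22 (SE 0.26, adjusted p = 0.385). Per2 had a change of 0.85 (adjusted p = 0.534) and Cry1 one of 0.69 (adjusted p = 0.577), each without overlap of the groups.

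In the MCU knockout 6 of these 8 repressors were below control and 2 above, with a median of -0.57 and 0 called (0 higher and 4 lower at an unadjusted p under 0.05, where 4.76% and 5.35% of all probe sets were). Ciart was at -1.14 (SE 0.26, adjusted p = 0.204), Cry2 at -0.82 (adjusted p = 0.251) and Per2 at -0.90 (adjusted p = 0.335). Between the knockouts, where Nr1d1, Arntl and Clock had higher means in the MCU knockout, all 8 repressors had lower means there and 3 of them were called, where 0.158% of all probe sets were called in either direction. Ciart fell to 6.05 ± 0.47 in the MCU knockout, against 8.42 ± 0.26 in the MCUb knockout (log2 change -2.37, SE 0.26, adjusted p = 0.0037). Per2 fell to 5.85 ± 0.52, against 7.60 ± 0.22 in the MCUb knockout (change -1.75, adjusted p = 0.0265). Both were above background on 2 of 3 arrays in the MCU knockout, replicate 2 being the exception. On replicate 3, with a limit of 5.8995, Per2 was at 5.9041 and Ciart at 6.09, so these MCU knockout values are close to background. Cry2 fell to 8.45 ± 0.10, against 9.75 ± 0.26 (change -1.30, adjusted p = 0.0336). The calls of Per2 and Cry2 were lost under several other settings, with adjusted p up to 0.152 and 0.213, while Ciart passed under all 17.

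Output factors, which carry the rhythm to other genes by binding D-boxes, were measured for 4 of 4 genes. In the MCUb knockout all 4 lay above control, with a median of 0.23 and 0 called in limma. At an unadjusted p under 0.05, 1 was higher and 0 lower, where 3.9% and 4.21% of all probe sets were. Hlf had the largest of these changes, 1.05 (SE 0.28, adjusted p = 0.477), and Dbp, a direct target of BMAL1 with CLOCK, stood at 14.88 ± 0.20 against 14.75 ± 0.20 in control. In the MCU knockout Dbp was at 13.89 ± 0.23, below control on every array (change -0.87, adjusted p = 0.208), and 2 of the 4 genes lay below control with a median of -0.25. At an unadjusted p under 0.05 limma had 0 higher and 1 lower there, where 4.76% and 5.35% of all probe sets were. Between the knockouts all 4 had lower means in the MCU knockout, with a median of -0.78 and 0 called (0 higher and 3 lower at an unadjusted p under 0.05, where 2.68% and 3.02% of all probe sets were). Dbp was at -1.0 (SE 0.20, adjusted p = 0.132), Hlf at -0.79 (adjusted p = 0.717) and Tef, a relative of Dbp and Hlf, at -0.78 (adjusted p = 0.668). Nfil3, which REV-ERB alpha represses and which was chosen after its values were seen, had changes of 0.02 in the MCU knockout and 0.19 in the MCUb knockout, neither past the test.

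**Figure D5:**
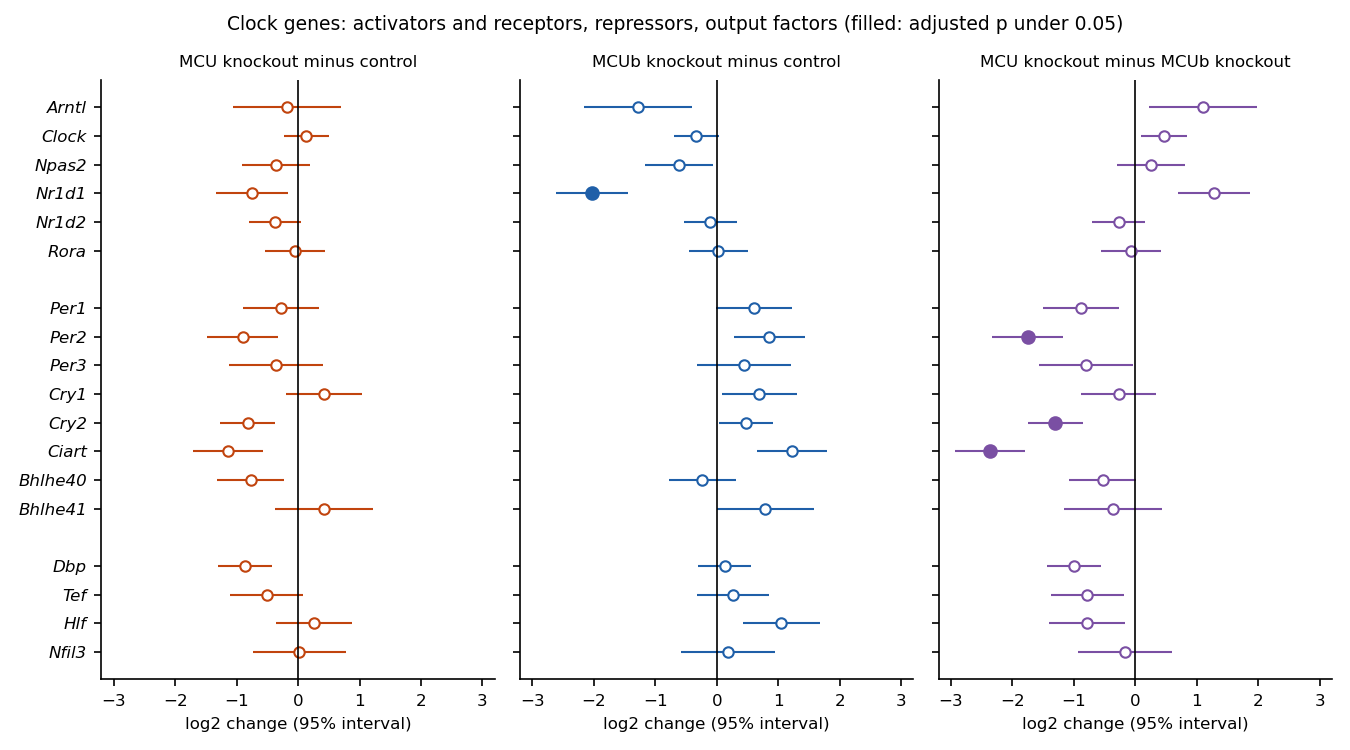
Log2 change (horizontal axes) with its 95% interval for the 6 genes, the 8 repressors and the 4 output factors, 1 panel per comparison. Filled points have an adjusted p under 0.05: Nr1d1 between MCUb knockout and control at -2.02, and Per2, Cry2 and Ciart between the knockouts.

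Genes named for liver or muscle as targets of REV-ERB were measured for 8 of 12 listed, and 0 were called in any of the 3 comparisons by limma. Below control lay 8 of the 8 in the MCU knockout (median -0.29, with 1 lower and 0 higher at an unadjusted p under 0.05) and 6 of the 8 in the MCUb knockout (median -0.28, with 1 lower and 0 higher), where 5.35% and 4.21% of all probe sets were lower. Cd36, a fatty acid transporter, was at -0.57 in the MCUb knockout (SE 0.24, adjusted p = 0.591) and at -0.40 in the MCU knockout (adjusted p = 0.603). The elongase gene Elovl3, also among the smallest p, was above background on no array. Bnip3, a mitophagy receptor, was at -0.50 in the MCU knockout (adjusted p = 0.423) and -0.53 between the knockouts (adjusted p = 0.718). Ulk1 and Atg5 of autophagy had changes of -0.43 and 0.21 between the knockouts, neither past the test. Without control replicate 3 the medians against control were -0.19 in the MCU knockout, with 0 lower at that p, and -0.077 in the MCUb knockout.

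Coregulators of the receptors, 12 of 14 listed, had 0 called in the 3 comparisons, with medians of 0.07, 0.04 and 0.01 for MCU knockout against control, MCUb knockout against control and between the knockouts. At an unadjusted p under 0.05 limma had 0 higher and 1 lower, 1 higher and 1 lower, and 0 of either, in that order. Of all probe sets, 4.76% and 5.35%, 3.9% and 4.21%, and 2.68% and 3.02% were higher and lower at that p. Nrip1, a corepressor of nuclear receptors, had 9.44, 9.74 and 9.73 in the MCUb knockout, against 7.74, 9.08 and 8.49 in control (change 1.20, SE 0.34, adjusted p = 0.484). The coactivator gene Ppargc1b was below every control array in both knockouts, at -0.55 in the MCU knockout and -0.58 in the MCUb knockout (adjusted p of 0.388 and 0.534). Hdac3, the deacetylase that REV-ERB recruits, was at 0.31 in the MCU knockout (adjusted p = 0.581).

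Enzymes that modify or degrade clock proteins, 13 of 14 listed, likewise had 0 called in the 3 comparisons. In the MCUb knockout 11 of the 13 lay above control with a median of 0.34 (3 higher and 0 lower at an unadjusted p under 0.05, where 3.9% and 4.21% of all probe sets were). One of the 3, Fbxl21, was above background on no array. Without control replicate 3 the median was 0.15 and 0 of the 13 were higher at that p. Usp2, a ubiquitin protease acting on clock proteins, had 15.85, 15.87 and 15.91 in the MCUb knockout, against 15.56, 15.32 and 15.31 in control (change 0.48, SE 0.18, adjusted p = 0.565). The ligase gene Huwe1 was at 0.96 (adjusted p = 0.567), with control arrays spread from 9.44 to 11.32, at 1.51 (adjusted p = 0.0477) without control replicate 2, the highest of them, and at 0.56 (adjusted p = 0.852) without control replicate 3, the lowest. In the MCU knockout the median was 0.02, with 2 higher, Fbxl21 among them, and 2 lower at that p (4.76% and 5.35% of all probe sets). Without control replicate 3, 0 were higher and 2 lower. With all arrays the kinases Csnk2a1 and Csnk1d were both at -0.46 (adjusted p of 0.421 and 0.430). Between the knockouts 10 of the 13 had lower means in the MCU knockout, with a median of -0.14. At that p 0 were higher and 2 lower (2.68% and 3.02% of all probe sets). Usp2 was at -0.69 (adjusted p = 0.423) and the deacetylase gene Sirt1 at -0.55 (adjusted p = 0.718).

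For haem, the REV-ERB ligand, 10 of 11 listed genes of its synthesis and breakdown were measured and 0 were called in the 3 comparisons. In limma 1, 2 and 1 of them were lower and 0 higher at an unadjusted p under 0.05 for MCU knockout against control, MCUb knockout against control and between the knockouts, where 5.35%, 4.21% and 3.02% of all probe sets were lower. The medians were 0.04, 0.01 and 0.04 in that order, and those against control turned to -0.20 in the MCU knockout and -0.16 in the MCUb knockout without control replicate 3. Alas1, the rate-limiting enzyme outside red cells and chosen after its values were seen, stood at 15.14 ± 0.31 in the MCU knockout, 15.16 ± 0.19 in the MCUb knockout and 15.10 ± 0.42 in control. Urod, of the middle of the pathway, was below control on every MCUb knockout array (change -0.57, SE 0.17, adjusted p = 0.530). The red-cell enzyme Alas2, the one blood marker measured, was at -0.77 in the MCU knockout (7.57 to 7.72, against 8.14 to 8.76 in control, adjusted p = 0.332) and at -0.59 in the MCUb knockout (adjusted p = 0.562). Its part in the Nr1d1 values was not tested.

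Muscle genes reported to follow BMAL1 were measured for 10 of 10, with 0 called in the 3 comparisons. At an unadjusted p under 0.05 limma had 2 higher and 1 lower in the MCU knockout than in control, 1 higher and 2 lower in the MCUb knockout than in control, and 2 higher and 1 lower between the knockouts. The shares of all probe sets were 4.76% and 5.35%, 3.9% and 4.21%, and 2.68% and 3.02%. Without control replicate 3 the counts were 3 higher and 0 lower in the MCU knockout than in control and 1 higher and 0 lower in the MCUb knockout than in control. Ucp3, a mitochondrial carrier, had 10.34, 10.70 and 9.58 in the MCUb knockout, against 10.80, 11.23 and 11.79 in control, lower without overlap (change -1.07, SE 0.39, adjusted p = 0.556). Pdk4, which encodes an inhibitory kinase of pyruvate dehydrogenase, was at -0.87 in the MCUb knockout (adjusted p = 0.578) and at 1.01 in the MCU knockout (adjusted p = 0.404). Between the knockouts Ucp3 differed by 1.92 (SE 0.39, adjusted p = 0.135) and Pdk4 by 1.87 (SE 0.36, adjusted p = 0.112), both higher in the MCU knockout on every array. Leaving out MCUb knockout replicate 1 brought Pdk4 past the threshold (adjusted p = 0.0357). Pdp1, the phosphatase that opposes Pdk4, was at 0.71 and 0.95 in the MCU and MCUb knockout (adjusted p of 0.441 and 0.527), and the lipid synthesis gene Dgat2 at -0.76 in the MCU knockout (adjusted p = 0.471).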

How the data were processed

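Total RNA of 9 muscles was measured on Clariom S arrays after labelling with a 3' IVT Pico kit, per the labels' protocols. The deposited table gives a log2 value for every probe set on every array. The submitters' processing notes name Affymetrix Expression Console for it, while its version, summarisation, normalization and log base are not given in the sources used here. Log2 was read from the range of the values, and every fold rests on that reading. Of 28846 values per array, 6640 control features were left out. The platform table named 19572 of the remaining 22206 probe sets, all matched to symbols of the RefSeq table of GRCm38.p6.

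All arrays entered 1 limma 3.58.1 fit under R 4.3.3 with eBayes (two-sided; 3 group means, 6 residual degrees of freedom plus a prior of 5.06), with Benjamini-Hochberg adjustment over 22206 probe sets. The script was tested on simulated data. The number of arrays limits the precision. Named were the 6 genes, their relatives, up to 3 genes of smallest p per list and comparison, and the 5 genes at each end of the correlation with Nr1d1 and Arntl. Mcu and markers were given as checks, and genes picked later are identified as such in the text. Members and lists were chosen with earlier results of these data known. Other settings were a filter on dim probe sets, normalizations, priors, weights, fewer groups, a replicate block, a Y-linked covariate and leaving out each array.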

Additional observations from a re-analysis of the deposited data

How the results depend on the processing

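Across 17 other settings, the number of the 6 genes past the threshold was 0 in every one for MCU knockout against control and for MCU knockout against MCUb knockout. For MCUb knockout against control it was 1 with all arrays and 0 with the 2 groups alone or the Y-linked covariate, and 0 to 1 with 1 array left out. The number of probe sets past the threshold was 31 for MCU knockout against control, 16 with the Y-linked covariate, and 20 to 98 with 1 array left out. It was 5 for MCUb knockout against control, 1 with the 2 groups alone, and 0 to 20 with 1 array left out. Between the knockouts it was 35, 61 with array quality weights, and 13 to 43 with 1 array left out. With the replicate number as a block, the Nr1d1 change was -2.02 (adjusted p = 0.046). Same-numbered arrays did not deviate together (correlations of -0.12 to 0.09), so the numbers are not taken to pair the samples.

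The sign turned for values that passed in no setting. With 1 array left out, Arntl in the MCU knockout was -0.53 to 0.34, Arntl2 in the MCUb knockout -0.082 to 0.28, Nr1d2 in the MCUb knockout -0.20 to 0.013, and Rora -0.23 to 0.16 in the MCU knockout, -0.032 to 0.14 in the MCUb knockout and -0.26 to 0.13 between the knockouts. With the Y-linked covariate, Hlf in the MCU knockout was -0.16 and Rora in the MCUb knockout -0.087. Rora in the MCU knockout was 0.049 with array quality weights and 0.14 by probe set TC0900000892.mm.2, the last chosen after seeing the data. The cause was not tested. Npas2 had no value under the filter on dim probe sets, which removed it.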

Other observations

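The genes whose log2 values followed Nr1d1 most closely over the 9 arrays, among 7650 other named genes above background on every array, were Tmem140 (Pearson correlation 0.93), the HSP90 co-chaperone gene Ahsa1 (0.92), the creatine transporter gene Slc6a8 (0.91), the SUMO protease gene Senp6 (0.91) and the small GTPase gene Rab18 (0.90). Those most opposed were Atpaf2, an assembly factor of the mitochondrial ATP synthase (-0.98), the BMP receptor gene Bmpr2 (-0.97), the profilin gene Pfn2 (-0.95), Cep85l (-0.95) and Srp72 of the signal recognition particle (-0.95). On deviations from genotype means Atpaf2 kept -0.94 and Bmpr2 -0.88, while Cep85l gave -0.45.

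For Arntl the closest were Ppp1r27 (0.90), Tmem39a (0.89), the COP9 signalosome gene Gps1 (0.87), Fbxl15 (0.86) and the cadherin gene Cdh13 (0.85). The most opposed were the kinesin gene Kif2a (-0.91), Tmem201 (-0.91), the mineralocorticoid receptor gene Nr3c2 (-0.90), the kinase gene Rps6ka5 (-0.89) and Zmym2 (-0.87). None of the 5 closest or 5 most opposed genes of Nr1d1 was among those of Arntl. These rankings over 9 arrays are descriptions, with no test.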
